A study of Rattus norvegicus with 12 samples.

Results

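The genes described here encode the enzymes of the tricarboxylic acid cycle, of the malate-aspartate shuttle, of ketone body use and of branched-chain amino acid breakdown. They were taken as a list of 45 gene symbols, of which 42 had a row in the deposited table of 32623 genes. All 42 had counts and all 42 were among the 12304 genes that passed the filter on low counts. The symbols Pcx, Idh3b and Ogdh had no row under those names and are not among the 42. Pcx had a row under its current symbol Pc, which is given below with the other genes of the pathways. The RNA was heart RNA of male Sprague Dawley rats, and the labels do not name the heart region. The labels give an age of 5 weeks together with a weight of 130 to 150 g. Since CTRL rats had 8 weeks of normoxia, this age cannot be that at the end of the experiment. In the SU_HX group, rats received the VEGF receptor inhibitor SU-5416 at 20 mg/kg under the skin, had 3 weeks at 10% oxygen and 2 weeks of normoxia, in an order that the labels leave ambiguous, and then had vehicle for 3 weeks in normoxia. In the Chrysin group, rats had the same SU-5416 and hypoxia and then the plant flavone chrysin, 100 mg/kg each day during the last 3 weeks. The CTRL group stayed in normoxia for 8 weeks, and the labels give it neither SU-5416 nor vehicle. Each group had 4 libraries. The labels number the libraries but do not state outright that each number is 1 animal; the p-values reflect the spread among these libraries, which may be technical.

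SU-5416 with hypoxia is used in rats as a model of pulmonary arterial hypertension, a disease that loads the right ventricle with raised pressure. The adult heart gains most of its ATP in mitochondria, where the tricarboxylic acid cycle oxidises acetyl-CoA from fatty acids, glucose, ketone bodies and amino acids and passes electrons to the respiratory chain. Leucine, isoleucine and valine are first transaminated, then decarboxylated by a dehydrogenase complex that a kinase switches off and a phosphatase switches on, and then broken down along separate arms to acetyl-CoA, acetoacetate or succinyl-CoA. Several steps exist in a cytosolic and a mitochondrial form encoded by different genes.

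Total counts per library ranged from 3997306 to 6009798. Levels are given as CPM, counts scaled by the library total after TMM correction for libraries whose composition differs. A pair of libraries stood apart from their group. SU_HX rat 1 had 63.4% of its gene reads in introns, where the others had 42.6% to 50%, and it was the lowest of its group for 41 of the 42 genes. Chrysin rat 3 lay on the CTRL side of the first principal component over all genes and was the highest of its group for 37 of the 42 genes. Results that rest on these libraries are given with and without them. They are described here partly by the values of the 42 genes, so results without them are no independent support. SU_HX rat 2, the highest of its group for 38 of the 42 genes, was kept in those fits. So was Chrysin rat 4, the lowest of its group for 35.

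In SU_HX hearts most of these genes were lower than in CTRL hearts. Of the 42 genes, 34 fell at an adjusted p under 0.05 in edgeR's quasi-likelihood test, where 14.7% of all genes tested fell, and 2 rose, where 16% of all genes rose. The median log2 change was -1.20 for the 42 genes and 0.07 for all genes tested. Every SU_HX library lay under every CTRL library for 36 genes, against 16.8% of all genes. In bulk tissue, fewer cells of a type and less RNA per cell cannot be told apart. The genes that rose were Idh1 and Bcat1, which encode cytosolic enzymes. Without SU_HX rat 1 and Chrysin rat 3, 35 genes fell and 2 rose, the median log2 change was -0.93, and 18.7% of all genes fell and 17.9% rose. Without SU_HX rat 3, 19 of the 42 fell, where 9.35% of all genes did, and the calls were lost for Cs, Idh3g, Dlst, Sucla2, Sdha, Fh, Mdh1, Mdh2, Got1, Bdh1, Dbt, Ivd, Acad8, Hibch and Hibadh.

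The 4 SU_HX libraries were not alike. The median over the 42 genes of the log2 ratio to the CTRL mean was -2.25 in SU_HX rat 1, -0.53 in rat 2, -1.47 in rat 3 and -0.94 in rat 4, whereas the CTRL libraries lay between -0.08 and 0.08. SU_HX rat 2 was the highest of its group for 38 of the 42 genes. In rat 2, 36 genes lay under the whole CTRL range, as did 40 in rat 1, 40 in rat 3 and 39 in rat 4. The share of all genes under the CTRL range in a single library was not counted, so these counts only describe the libraries. The order of the rats was nearly the same in every functional group, with rat 1 lowest and rat 2 highest in the group medians of all 6 groups.

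**Figure D1:**
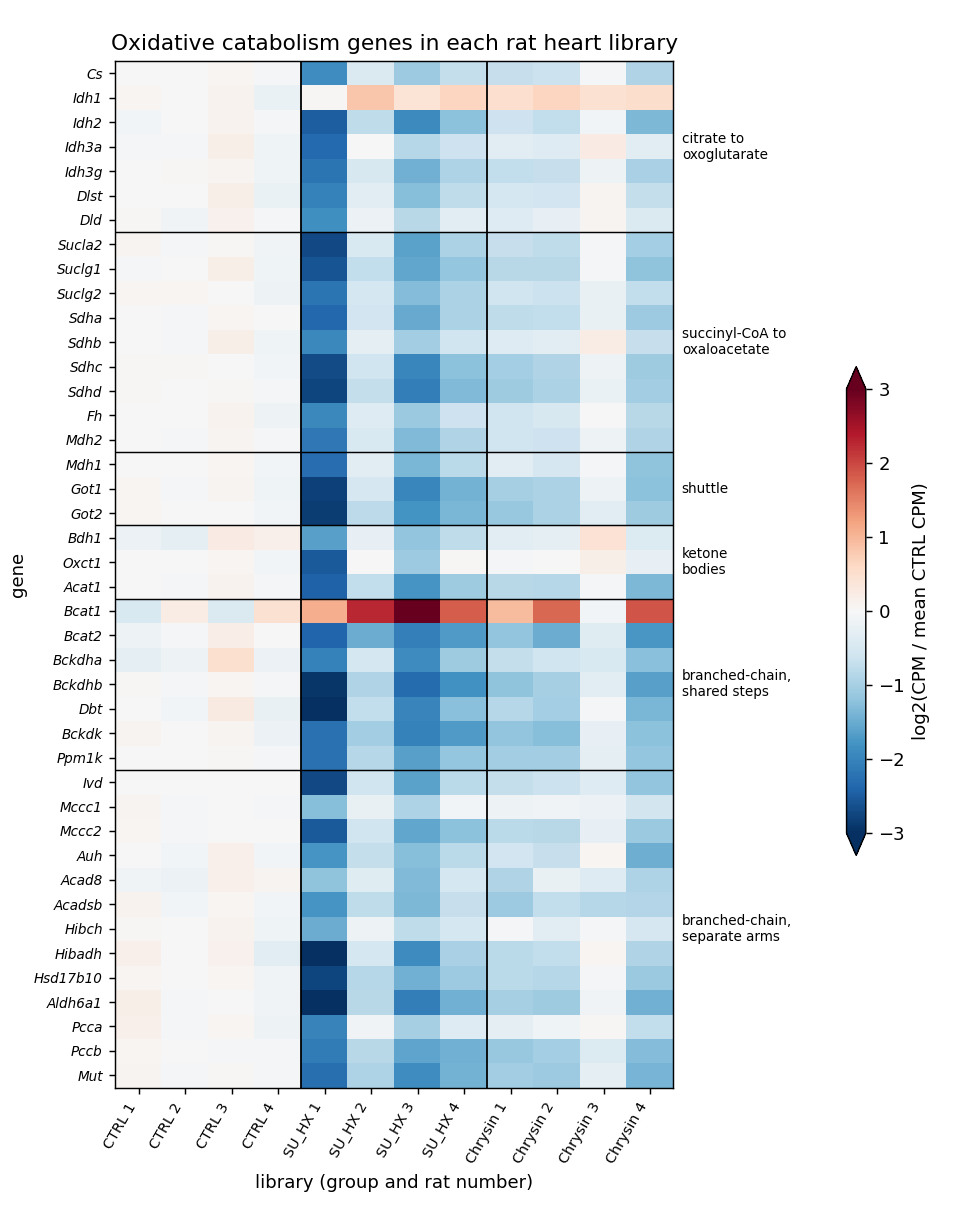
Each cell gives the log2 ratio of a gene's CPM to its mean CPM in the 4 CTRL libraries (colour scale from -3 to 3, values beyond it drawn in the end colours), with genes in rows by function and libraries in columns. SU_HX rat 1 is the lowest column, Chrysin rat 3 is close to CTRL, and Idh1 and Bcat1 stand out as the rows above 0.

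Of the 7 genes from citrate synthesis to 2-oxoglutarate use, 4 fell, 1 rose and 2 did not pass, with a median log2 change of -0.93. Idh2 (ENSRNOG00000013949, chromosome 1, 141866283 to 141893705; the sources used here name no genome build) encodes the mitochondrial NADP-dependent isocitrate dehydrogenase and had the highest level per length of the 42 genes in CTRL hearts, 1232 CPM per kb of exon. Its level was 2240, 2338, 2537 and 2306 CPM in the CTRL rats, numbered 1 to 4, and 427, 1397, 629 and 1010 CPM in the SU_HX rats. The highest SU_HX library was below the lowest CTRL library, and the log2 change was -1.44 (SE 0.36, adjusted p = 0.00951). Idh3g, the regulatory gamma subunit of the NAD-dependent isocitrate dehydrogenase, stood at 422, 431, 449 and 387 CPM in CTRL and 92.5, 301, 155 and 222 CPM in SU_HX. It fell by 1.13 on the log2 scale (SE 0.30, adjusted p = 0.0131), again with no overlap between the groups.

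Citrate synthase (Cs), which joins acetyl-CoA to oxaloacetate, fell from 804 ± 26.6 to 421 ± 160.5 CPM (mean ± SD, n = 4 each; log2 change -0.93). The E2 subunit of the oxoglutarate dehydrogenase complex, Dlst, had a log2 change of -0.98 and fell too, although the call was lost under 7 of the 22 other settings, among them the leaving out of any CTRL rat (adjusted p from 0.0509 to 0.0929 in those 7). The catalytic alpha subunit Idh3a (-0.73, adjusted p = 0.128) and Dld (-0.66, adjusted p = 0.0958), the E3 subunit shared by the pyruvate, oxoglutarate and branched-chain complexes, did not pass. In both genes SU_HX rat 2 was in or near the CTRL range, with Idh3a at 296 CPM and Dld at 463 CPM.

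From succinyl-CoA to oxaloacetate, 8 of 9 genes fell and 1 did not pass, and the median log2 change was -1.20. Succinate dehydrogenase, which is also complex II of the respiratory chain, has a flavoprotein (Sdha), an iron-sulphur subunit (Sdhb) and a pair of membrane anchors (Sdhc and Sdhd). Sdhd (ENSRNOG00000022980, chromosome 8, 55028125 to 55037604) was at 412, 398, 414 and 383 CPM in CTRL and 59.6, 246, 95.5 and 159 CPM in SU_HX hearts. The groups did not overlap, and 34.9% of the CTRL mean was left in SU_HX (log2 change -1.52 (SE 0.35, adjusted p = 0.00739)). The other anchor Sdhc changed by -1.42 and Sdha by -1.20, and both fell. Sdhb was the nearest to 0 of the subunits. It was at 476, 466, 543 and 441 CPM in CTRL and 126, 402, 233 and 319 CPM in SU_HX, every SU_HX library below every CTRL library, and its log2 change of -0.83 did not pass (SE 0.30, adjusted p = 0.0513). Under 6 of the 22 other settings it did, among them DESeq2, limma-voom and the fit without SU_HX rat 1 and Chrysin rat 3 (adjusted p from 0.0127 to 0.0487 in those 6).

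Succinyl-CoA ligase pairs the common alpha subunit Suclg1 with an ATP-forming (Sucla2) or GTP-forming (Suclg2) beta subunit. Suclg2 was at 238, 236, 231 and 203 CPM in CTRL and 49.6, 156, 91.5 and 117 CPM in SU_HX hearts, with no overlap and a log2 change of -1.13 (SE 0.27, adjusted p = 0.00778). Sucla2 was at 492, 454, 477 and 427 CPM in CTRL and 70.8, 339, 151 and 240.3 CPM in SU_HX, a log2 change of -1.21 (SE 0.37, adjusted p = 0.0262). Suclg1 changed by -1.37, so that all 3 ligase genes fell, with the call for Sucla2 lost under 6 of the 22 other settings, including the leaving out of any CTRL rat (adjusted p from 0.0516 to 0.0853 in those 6). Fumarase (Fh, -0.90) and the mitochondrial malate dehydrogenase Mdh2 fell as well. The call for Fh was lost under 7 settings, again including the leaving out of any CTRL rat (adjusted p from 0.051 to 0.117). Mdh2 was at 1045, 1023, 1111 and 996 CPM in CTRL and 234, 761, 417 and 563 CPM in SU_HX (log2 change -1.08 (SE 0.30, adjusted p = 0.0171)).

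The malate-aspartate shuttle moves reducing power from the cytosol into mitochondria through paired transaminases and malate dehydrogenases, and its 3 genes here that are not cycle enzymes all fell. Got2 (ENSRNOG00000011782, chromosome 19, 9587653 to 9613340), the mitochondrial aspartate transaminase, was at 1275, 1238, 1244 and 1173 CPM in CTRL and 170.5, 715, 356 and 475 CPM in SU_HX hearts. The groups were well apart, and the log2 change was -1.52 (SE 0.35, adjusted p = 0.00676). Got1, its cytosolic counterpart, was at 687, 644, 696 and 605 CPM in CTRL and 94.2, 460.4, 169 and 248 CPM in SU_HX (log2 change -1.44 (SE 0.39, adjusted p = 0.0151)). The cytosolic malate dehydrogenase Mdh1 was at 1546, 1563, 1611 and 1463 CPM in CTRL and 319, 1233, 594 and 889 CPM in SU_HX. Its log2 change of -1.03 (SE 0.36) passed narrowly (adjusted p = 0.0446) and lost the call under 11 of the 22 other settings, including the leaving out of any CTRL rat, SU_HX rat 3 or 4, or Chrysin rat 1 or 2, with adjusted p from 0.0588 to 0.129 in those 11.

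Ketone body use takes 3 enzymes, and 2 of their genes fell. Bdh1 oxidises beta-hydroxybutyrate to acetoacetate, and its level was 110.2, 104, 147 and 137 CPM in CTRL and 40.1, 105, 55 and 73.2 CPM in SU_HX hearts. SU_HX rat 2 overlapped the CTRL range, and the log2 change was -0.86 (SE 0.27, adjusted p = 0.03). The Bdh1 call was lost under 5 of the 22 other settings: without CTRL rat 3 or 4, without SU_HX rat 1 or 3, and with scaling to cardiomyocyte markers (adjusted p from 0.0516 to 0.284). Acat1, the mitochondrial thiolase that splits acetoacetyl-CoA and also ends the isoleucine arm, was at 775, 756, 848 and 759 CPM in CTRL and 147, 469.8, 231 and 377 CPM in SU_HX (log2 change -1.36 (SE 0.34, adjusted p = 0.0107)). Oxct1 (ENSRNOG00000043094, chromosome 2, 53859737 to 54007756) encodes the CoA transferase that activates acetoacetate. It was at 2512, 2537, 2638 and 2377 CPM in CTRL but at 439.6, 2494, 1178 and 2572 CPM in SU_HX, so that rats 2 and 4 were at the CTRL level while rat 1 was far below it. The log2 change of -0.59 did not pass (SE 0.41, adjusted p = 0.294).

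The steps shared by all branched-chain amino acids held the 3 largest falls among the 42 genes, with 6 of 7 lower, 1 higher and a median log2 change of -1.53. Bcat2 (ENSRNOG00000020956, chromosome 1, 101554642 to 101572080), the mitochondrial branched-chain aminotransferase, was at 138, 146, 174 and 151 CPM in CTRL and 29.5, 53.9, 36.8 and 46.9 CPM in SU_HX hearts. It kept 27.4% of its CTRL mean, with no overlap (log2 change -1.86 (SE 0.28, adjusted p = 0.00114)). The dehydrogenase complex is built of Bckdha, Bckdhb and Dbt, and all 3 fell. Bckdha was at 142, 155, 239 and 152 CPM in CTRL, where rat 3 was above the others, and at 42.5, 120, 46.5 and 82.2 CPM in SU_HX (log2 change -1.24 (SE 0.31, adjusted p = 0.0104)). Bckdhb changed by -1.79 and the core subunit Dbt by -1.53.

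The enzymes that switch the complex off and on fell together. Bckdk (ENSRNOG00000019485, chromosome 1, 199351628 to 199356881), the kinase that inactivates it, was at 165, 155, 165 and 139 CPM in CTRL and 33.2, 75.7, 38.3 and 48.3 CPM in SU_HX (log2 change -1.67 (SE 0.28, adjusted p = 0.0016)). Ppm1k, the phosphatase that reactivates it, was at 146, 144, 150.3 and 143 CPM in CTRL and 31.1, 80.1, 47.3 and 65.2 CPM in SU_HX (log2 change -1.38 (SE 0.26, adjusted p = 0.00306)). Neither gene's groups overlapped. The log2 ratio of kinase to phosphatase counts within a library was 0.18, 0.11, 0.13 and -0.05 in the CTRL rats and 0.09, -0.08, -0.30 and -0.43 in the SU_HX rats. The groups overlapped, and the mean difference of -0.27 did not pass a two-sided exact permutation test (p = 0.0571, 0.114 after Benjamini-Hochberg adjustment over the 6 ratios tested; 4 against 4 libraries cannot go below 0.0286).

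Along the separate arms, 11 of 13 genes fell and 2 did not pass, with a median log2 change of -1.22. Pccb (ENSRNOG00000015869, chromosome 8, 109368624 to 109418872), the beta subunit of propionyl-CoA carboxylase, was at 113, 110.3, 107 and 106 CPM in CTRL and 25.5, 61.9, 36.6 and 40.4 CPM in SU_HX hearts. Every SU_HX library was lower than every CTRL library, and the log2 change was -1.41 (SE 0.24, adjusted p = 0.00195). Mut, the methylmalonyl-CoA mutase that delivers succinyl-CoA to the cycle, was at 188, 174, 182 and 172 CPM in CTRL and 37.4, 93.9, 49.3 and 67.2 CPM in SU_HX (log2 change -1.53 (SE 0.28, adjusted p = 0.00234)), again without overlap. The partner of Pccb, the biotin-carrying alpha subunit Pcca, had a log2 change of -0.71 that did not pass (adjusted p = 0.0955).

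In the leucine arm, isovaleryl-CoA dehydrogenase (Ivd) changed by -1.22, the non-biotin subunit Mccc2 of methylcrotonyl-CoA carboxylase by -1.32 and the hydratase Auh by -1.08, and all 3 fell. The biotin-carrying subunit Mccc1 was at 99, 90.7, 92.6 and 89.1 CPM in CTRL and 38.5, 80.1, 48.8 and 88.3 CPM in SU_HX. Rat 4 was just below the CTRL range, and the log2 change of -0.54 did not pass (SE 0.22, adjusted p = 0.0813). In the valine arm all 4 genes fell: the isobutyryl-CoA dehydrogenase Acad8 by 0.78 on the log2 scale, Hibch by 0.65, Hibadh by 1.34 and Aldh6a1, the methylmalonate semialdehyde dehydrogenase, by 1.67. Of these, Hibch lost the call under 13 of the 22 other settings, among them the replicate block and the leaving out of any CTRL rat (adjusted p from 0.0504 to 0.813), Hibadh under 5 (0.0541 to 0.088) and Acad8 under 4 (0.0604 to 0.588). In the isoleucine arm Acadsb changed by -1.08 and Hsd17b10 by -1.37, and both fell. The share of exon reads unique to the gene was 61.4% for Hsd17b10, 61.9% for Aldh6a1 and 76.5% for Mut, so their levels are uncertain. With unique exon reads alone, 34 of the 42 genes fell and 2 rose, where 14.9% of all genes fell and 16.2% rose.

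**Figure D2:**
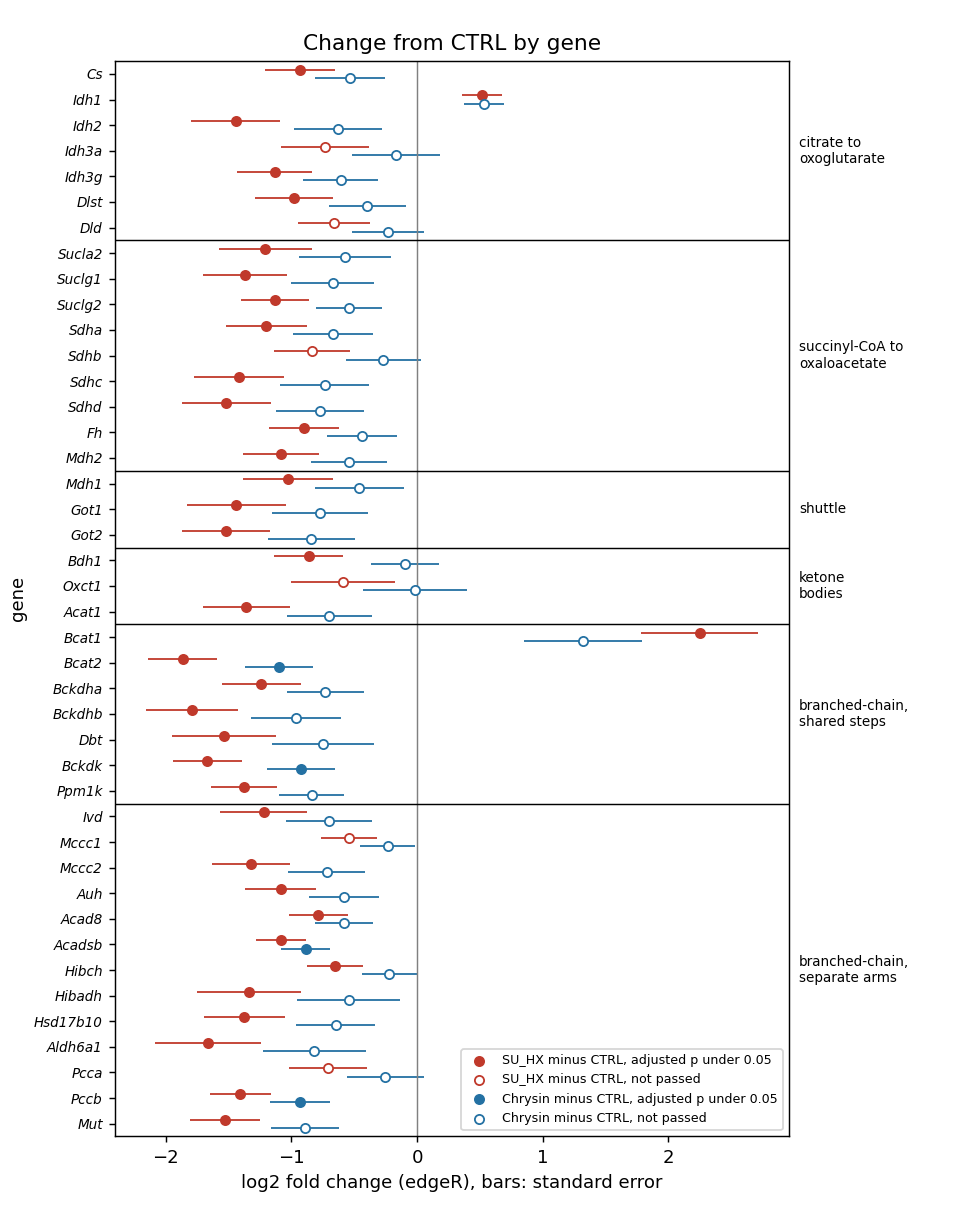
Log2 fold changes from edgeR with standard errors (n = 4 per group) for SU_HX minus CTRL and Chrysin minus CTRL, by gene; filled points have an adjusted p under 0.05. Both comparisons use the same CTRL libraries, and the Chrysin point lies nearer to 0 than the SU_HX point for every gene but Idh1.

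Idh1 and Bcat1 went the other way from their mitochondrial counterparts. Idh1 (ENSRNOG00000015020, chromosome 9, 71882105 to 71900044), the cytosolic and peroxisomal NADP-dependent isocitrate dehydrogenase, was at 59.1, 56.6, 61.1 and 49.4 CPM in CTRL and 57.8, 101, 75.4 and 89 CPM in SU_HX hearts. SU_HX rat 1 lay inside the CTRL range and the other SU_HX rats above it. Its log2 change of 0.52 (SE 0.16, adjusted p = 0.0256) lost the call under 8 of the 22 other settings, with adjusted p from 0.0532 to 0.0849: leaving out any one CTRL rat, SU_HX rat 2 or rat 4, dropping the filter on low counts, or fitting CTRL and SU_HX alone. Bcat1 (ENSRNOG00000015514, chromosome 4, 179259308 to 179339795), the cytosolic branched-chain aminotransferase, had the lowest level per length of the 42 genes in CTRL hearts, 1.87 CPM per kb of exon. It was at 3.55, 5.75, 3.65 and 6.71 CPM in CTRL and 10.4, 23.4, 43.3 and 17.3 CPM in SU_HX, every SU_HX library above every CTRL library. The log2 change was 2.25 (SE 0.47, adjusted p = 0.00429), and no setting ended the call (log2 change from 1.79 without SU_HX rat 3 to 2.93 with counts scaled to cardiomyocyte markers).

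Ratios within a library do not depend on how libraries are scaled. The log2 ratio of Bcat1 to Bcat2 counts was -5.19, -4.62, -5.50 and -4.46 in the CTRL rats and -1.48, -1.20, 0.23 and -1.42 in the SU_HX rats, a mean difference of 3.98. That of Idh1 to Idh2 was -5.24, -5.36, -5.37 and -5.54 in CTRL and -2.88, -3.78, -3.06 and -3.50 in SU_HX, a mean difference of 2.07. In both pairs the groups did not overlap, and each gave a two-sided exact permutation p of 0.0286, the smallest that 4 against 4 libraries allow, which becomes 0.0858 after adjustment over the 6 ratios and so does not pass. The other pairs moved little. The mean difference between SU_HX and CTRL was 0.01 for Mdh1 to Mdh2 (exact p = 0.886), 0.03 for Got1 to Got2 (exact p = 0.743) and -0.18 for Sucla2 to Suclg2 (exact p = 0.343), each within the spread of the SU_HX rats.

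**Figure D3:**
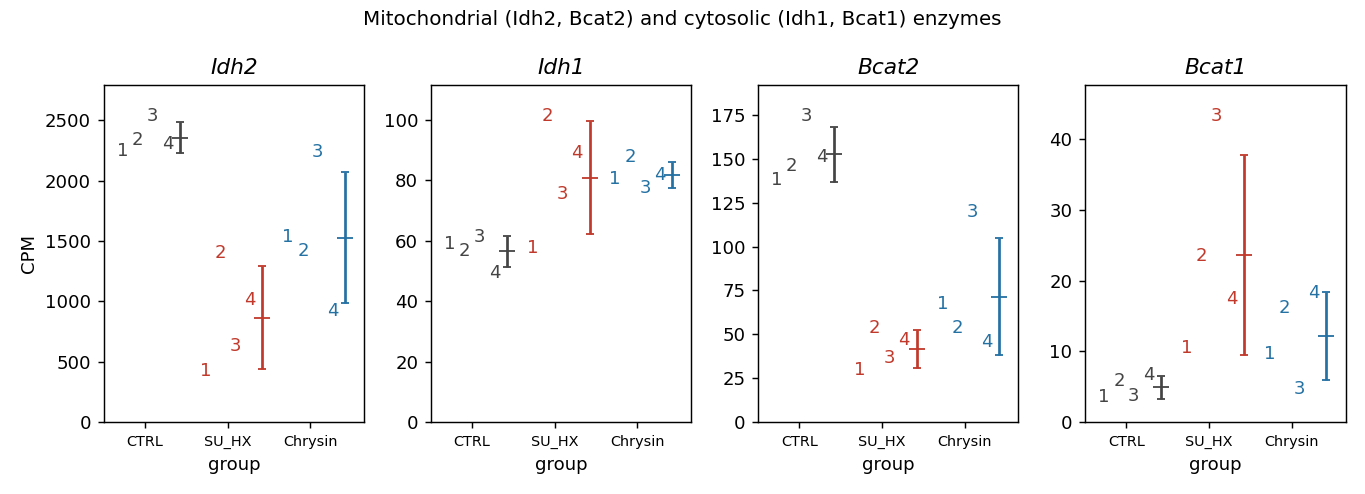
CPM of the mitochondrial enzymes Idh2 and Bcat2 and the cytosolic enzymes Idh1 and Bcat1, with each rat drawn as its number and the group mean ± SD (n = 4) beside it; axes start at 0. In SU_HX hearts Idh2 and Bcat2 lie below all CTRL values and Bcat1 above them, and Chrysin rat 3 is near the CTRL values for Bcat1 and Idh2.

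Promoter sequence was available from RefSeq for 38 of the 42 genes, as 39 windows of 300 bases in build GRCr8 that run from 250 bases before to 50 after an annotated start; Bcat1 has a pair of windows. Each of 4 motifs was searched on both strands. TCAAGGTCA, bound by estrogen-related receptors, which drive mitochondrial genes, was found in 1 of the 39 windows (Sdhd), a share of 2.56%, against 0.433% of all 33469 windows. The motif of NRF1, a regulator of respiratory genes, was in 4 windows (Dld, Sucla2, Sdha and Hibadh), 10.3% against 4.25%. CCGGAAGT, bound by ETS factors such as GABPA, was in 3 (Dlst, Mdh2 and Mut), 7.69% against 3.81%. CCAAT, the NF-Y motif, was in 21, 53.8% against 37.5%. The median GC content was 60.7% in the members' windows and 51.7% in all windows. The shares are descriptions and were not tested. The 250 bases upstream of the start are shown for Sdha, which fell and holds the NRF1 motif more than once, and for the mitochondrial and cytosolic pairs that moved in opposite directions, with matches to any of the motifs in capitals.
Sdha, chr1:30764303-30764552, plus strand: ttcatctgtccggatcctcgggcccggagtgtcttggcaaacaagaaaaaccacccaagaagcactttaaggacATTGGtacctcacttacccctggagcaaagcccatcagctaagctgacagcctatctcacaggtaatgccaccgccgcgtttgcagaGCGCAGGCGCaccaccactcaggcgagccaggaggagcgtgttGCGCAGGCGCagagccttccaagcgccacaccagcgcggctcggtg
Idh2, chr1:143467249-143467498, minus strand: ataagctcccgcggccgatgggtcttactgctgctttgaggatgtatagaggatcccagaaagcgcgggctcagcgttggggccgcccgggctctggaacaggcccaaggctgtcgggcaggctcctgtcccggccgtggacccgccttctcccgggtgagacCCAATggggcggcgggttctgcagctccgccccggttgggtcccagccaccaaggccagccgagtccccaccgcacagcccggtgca
Idh1, chr9:74049475-74049724, minus strand: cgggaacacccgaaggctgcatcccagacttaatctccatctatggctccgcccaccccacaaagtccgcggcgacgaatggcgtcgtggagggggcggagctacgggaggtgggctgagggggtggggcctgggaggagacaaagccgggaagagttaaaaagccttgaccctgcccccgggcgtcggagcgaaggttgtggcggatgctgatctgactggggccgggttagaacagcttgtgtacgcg
Bcat2, chr1:105178889-105179138, plus strand: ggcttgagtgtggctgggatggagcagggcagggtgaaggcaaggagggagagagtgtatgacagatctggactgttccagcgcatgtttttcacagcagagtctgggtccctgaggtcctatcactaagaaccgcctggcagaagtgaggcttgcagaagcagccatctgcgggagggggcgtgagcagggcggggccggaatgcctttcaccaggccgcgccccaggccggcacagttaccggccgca
Bcat1 first start, chr4:179777289-179777538, minus strand: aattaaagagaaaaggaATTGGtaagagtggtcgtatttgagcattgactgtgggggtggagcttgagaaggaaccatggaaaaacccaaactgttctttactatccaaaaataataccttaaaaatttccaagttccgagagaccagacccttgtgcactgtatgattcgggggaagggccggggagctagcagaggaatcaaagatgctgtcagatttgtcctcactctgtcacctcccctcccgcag
Bcat1 second start, chr4:179744209-179744458, minus strand: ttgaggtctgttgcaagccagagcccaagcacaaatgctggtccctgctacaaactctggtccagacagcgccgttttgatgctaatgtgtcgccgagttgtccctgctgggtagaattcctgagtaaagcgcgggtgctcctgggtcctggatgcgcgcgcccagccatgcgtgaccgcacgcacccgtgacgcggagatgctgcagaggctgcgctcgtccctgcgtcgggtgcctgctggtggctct
The upstream stretch of Idh2 holds a CCAAT, that of the first Bcat1 start holds one on the other strand, and those of Idh1, Bcat2 and the second Bcat1 start hold none of the motifs in these letters.

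Reads in introns come mostly from RNA that has not yet been spliced and gave a second readout of the same genes. Of the 41 genes with enough intron reads to test (all but Hsd17b10), 29 were lower and 1 higher in SU_HX than in CTRL hearts at an adjusted p under 0.05 in edgeR's test of intron reads, where 11.3% of 12242 genes were lower and 8.5% higher. The median log2 change of intron reads was -0.63, against -1.20 for exon counts of the same 41 genes, and the exon change was the larger in size for 38 of 41. Without SU_HX rat 1 and Chrysin rat 3 the medians were -0.59 and -0.92 and the exon change was larger for 35 of 41. With library totals and scaling from the exon counts, 15 of the 41 were lower, where 6.31% of all genes were. The difference between exon and intron changes was not tested.

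Bcat2 introns had 21.7, 22.1, 24.3 and 26.3 CPM in CTRL and 5.42, 8.59, 11.8 and 11.5 CPM in SU_HX (log2 change -1.36, SE 0.22, adjusted p = 0.00214). The largest intron falls were those of Got1 (-1.44) and Ppm1k (-1.44), followed by Bcat2 and Idh2 (-1.35). Mdh1, whose exon call was narrow, had an intron log2 change of -1.17 (SE 0.21, adjusted p = 0.00343). Got2, with the largest exon change outside the branched-chain genes, had an intron change of -0.47 that did not pass (adjusted p = 0.117). The 1 gene with more intron reads was Bcat1, at 11.2, 13.7, 13.8 and 11.8 CPM in CTRL and 32.8, 39.9, 43.9 and 37.1 CPM in SU_HX with no overlap (log2 change 1.60, SE 0.28, adjusted p = 0.00295). Intron reads of Idh1 changed by 0.15 and did not pass (adjusted p = 0.685).

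**Figure D4:**
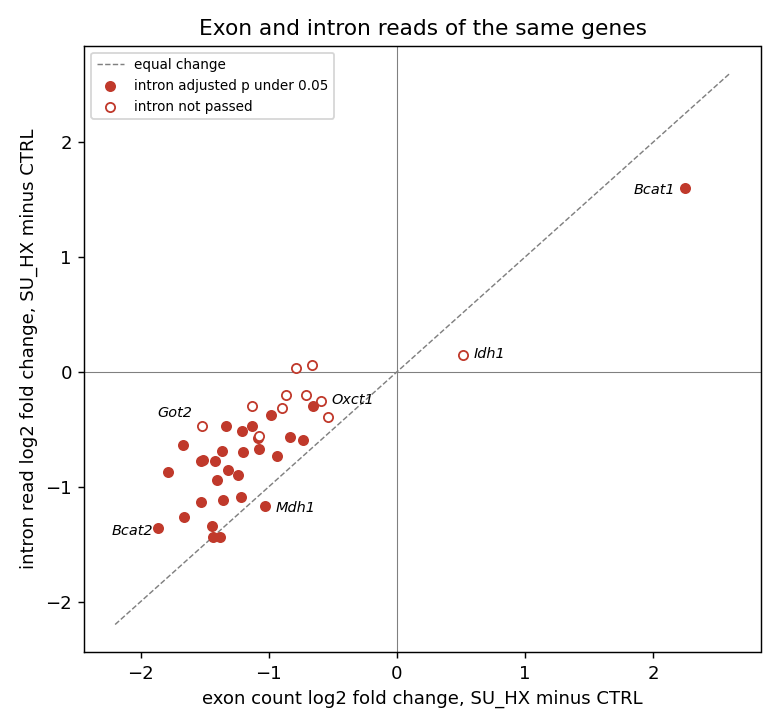
Log2 change of exon counts (horizontal) against that of intron reads (vertical), SU_HX minus CTRL, for the 41 genes tested in both; the dashed line marks equal change. Most points lie above the line and left of 0, with Bcat1 and, nearer to 0, Idh1 at the upper right and Mdh1 among the few with the larger change in introns.

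Within SU_HX and within Chrysin hearts, the median level of these genes put the libraries in the same order as the summed cardiomyocyte markers. In CTRL hearts the order differed. The summed CPM of 11 cardiomyocyte markers (Tnnt2, Tnni3, Tnnc1, Actc1, Myl2, Myl3, Mybpc3, Actn2, Ryr2, Pln and Des; Ttn had no row) lay between 42620 and 45890 in CTRL, between 15290 and 39860 in SU_HX and between 30480 and 46630 in Chrysin hearts. SU_HX rat 1 was the lowest at 15290 and Chrysin rat 3 the highest at 46630. SU_HX rat 4, with a median log2 ratio of -0.94 over the 42 genes, was at 38850. Of the 11 markers 3 fell in SU_HX (Tnni3, Myl3 and Pln) and 8 did not pass. Among those 8 were Myl2 (-0.22), Mybpc3 (-0.24) and Des, whose change was above 0 (0.48). The median log2 change of the 11 markers was -0.61. Over the same libraries the summed fibroblast markers ranged from 3721 to 5949 CPM in CTRL and from 5952 to 22250 CPM in SU_HX, with 6 of 7 higher. The macrophage markers ranged from 138 to 208 CPM in CTRL and from 442 to 1044 CPM in SU_HX, with 8 of 8 higher, the erythroid sum from 60.3 to 408 and from 1029 to 1945 CPM with 3 of 3 higher, and the lung epithelial sum from 1.07 to 3.84 and from 12.9 to 63.2 CPM with 4 of 4 tested higher. Endothelial markers ranged from 1017 to 1139 CPM in CTRL and from 1186 to 3053 CPM in SU_HX, with 1 of 5 higher. Of the liver markers, Alb and Fgb had 0 counts in all 12 libraries. The part of these shifts in cell markers in the result was not tested. Scaling each library to its cardiomyocyte marker counts left 26 of the 42 genes lower and 2 higher, where 3.94% of all genes were lower and 41.6% higher. The median log2 change of the 42 was then -0.67, and the median of all genes moved up by 0.78, from 0.07 to 0.85. This scaling is not a test of that part, because the markers themselves changed unequally in SU_HX, from -1.53 for Tnni3 to 0.48 for Des.

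**Figure D5:**
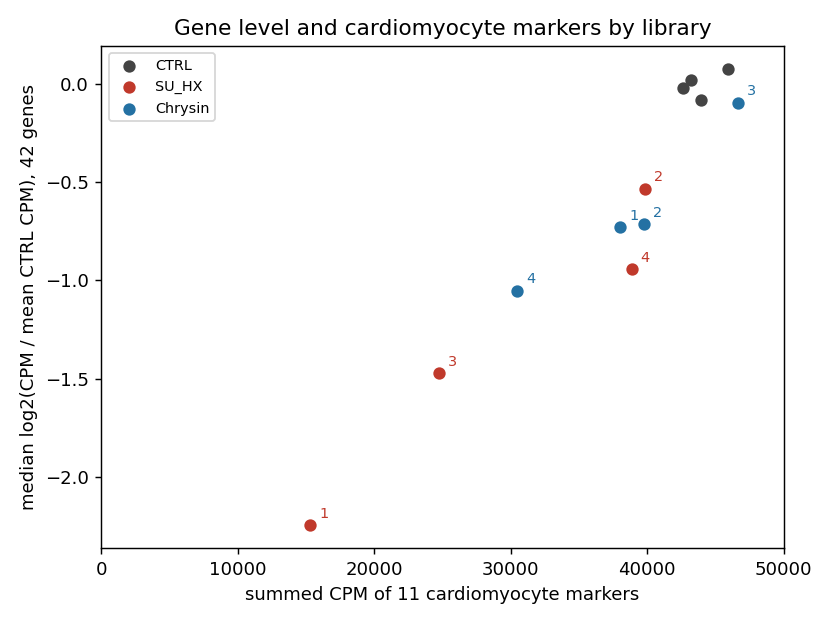
Each point is a library: the summed CPM of 11 cardiomyocyte markers (horizontal) against the median over the 42 genes of the log2 ratio to the CTRL mean (vertical), with rat numbers beside the SU_HX and Chrysin points. The CTRL points lie at the upper right with Chrysin rat 3, and SU_HX rat 1 is lowest on both axes at 15290 CPM and -2.25.

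No gene of the 42 passed between Chrysin and SU_HX hearts, in either direction, and none of the 12304 genes tested did (0% of all genes lower and 0% higher). At an unadjusted p under 0.05 there were 9 of the 42 in edgeR's test, 8 of them higher in Chrysin. Of all 12304 genes there were 1002, with 524 of them higher. The smallest adjusted p among the 42 was 0.557. DESeq2 gave 0 of the 42 and 2 of all genes at an adjusted p under 0.05, and limma-voom gave 0 of either; at an unadjusted p under 0.05 there were 13 of the 42 and 1073 of all genes with DESeq2 and 24 of the 42 and 1158 of all genes with limma-voom. The log2 change was above 0 for 41 of the 42 genes with a median of 0.57. It was above 0 for 5288 of all 12304 genes, whose median was -0.05. The libraries of the 2 groups overlapped for all 42. Without SU_HX rat 1 and Chrysin rat 3 the median of the 42 was 0.14, with 39 genes above 0. The number of all genes above 0 was not counted in that fit.

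Bcat2 had the smallest unadjusted p. It was at 67.3, 53.9, 119 and 45.5 CPM in the Chrysin rats, numbered 1 to 4, where rats 1 and 3 were above every SU_HX value given above (log2 change 0.77 (SE 0.27, adjusted p = 0.557)). Bcat1 was the single gene with a change below 0. It was at 9.57, 16.2, 4.67 and 18.3 CPM in the Chrysin rats, with rat 3 inside the CTRL range and the other 3 inside or near the SU_HX range (log2 change -0.93 (SE 0.42, adjusted p = 0.557)). Idh1 was at 80.3, 87.8, 77.4 and 81.7 CPM (log2 change 0.02 (SE 0.16, adjusted p = 0.974)). Oxct1 was at 2444, 2552, 2837 and 2114 CPM, near its CTRL values in all Chrysin rats, and its spread in SU_HX left a change of 0.57 (SE 0.41, adjusted p = 0.595).

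Against CTRL hearts, 4 of the 42 genes fell in Chrysin hearts and 0 rose, where 3.97% of all genes fell and 4.72% rose. The median log2 change was -0.62. Every Chrysin library lay under every CTRL library for 24 of the 42 genes, against 12.8% of all genes, and above them for Idh1. Of the 4 genes that fell, 2 were among the 7 of the shared branched-chain steps and 2 among the 13 of the separate arms. Cycle and shuttle genes such as Idh2, Sdhc and Got2 passed in this comparison under some other settings only. Bcat2 had a log2 change of -1.10 (SE 0.27, adjusted p = 0.0268). Bckdk was at 68.3, 64.8, 131 and 66.1 CPM in the Chrysin rats, with rat 3 nearest to CTRL (-0.92 (SE 0.27, adjusted p = 0.0494)). Acadsb was at 69.3, 60.4, 66.3 and 60.6 CPM in CTRL and 30.2, 38.5, 35.4 and 34.6 CPM in Chrysin, and here rat 3 was in the middle of its group (-0.89 (SE 0.20, adjusted p = 0.0201)). Pccb was at 50, 53.9, 81.8 and 44.7 CPM (-0.93 (SE 0.24, adjusted p = 0.0317)). Idh1 had a log2 change of 0.53 that did not pass (adjusted p = 0.0539), and Bcat1 one of 1.32 (adjusted p = 0.096).

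This count rested on single libraries. It was 0 without CTRL rat 1, 3 or 4 or without Chrysin rat 1 or 4, 1 without CTRL rat 2 or Chrysin rat 2, 7 without SU_HX rat 2, 8 without Chrysin rat 3 and 13 without SU_HX rat 1, which is in neither group compared. The share of all genes that fell went from 0.933% without Chrysin rat 4 to 8.32% without SU_HX rat 1 in these fits. Without both SU_HX rat 1 and Chrysin rat 3, 30 genes fell and Idh1 and Bcat1 rose, where 15.1% of all genes fell and 13.7% rose. The median log2 change was then -0.83. Chrysin rat 3 was the highest of its group for 37 of the 42 genes. Leaving it out lowers the Chrysin mean of those genes, so this count is no independent support for a fall. By rat, the median log2 ratio to the CTRL mean was -0.73 in Chrysin rat 1, -0.72 in rat 2, -0.10 in rat 3 and -1.05 in rat 4. In rat 3, 24 of the 42 genes lay under the CTRL range, 13 within it and 5 above it, whereas 37 to 40 lay under it in the others. The share of all genes was not counted for single Chrysin libraries either. By function, the median log2 change was nearest to 0 for the 3 ketone body genes, at -0.10, and farthest for the shared branched-chain steps, at -0.84. The ketone body genes were not alike. Acat1 was at 440, 435, 754 and 307 CPM, every Chrysin library under every CTRL library (log2 change from CTRL -0.70, adjusted p = 0.212 in edgeR's test). Bdh1 was at 99.5, 104, 169.6 and 93.5 CPM (log2 change from CTRL -0.10, adjusted p = 0.861) and Oxct1 had a log2 change of -0.02 (adjusted p = 0.987). Idh2 was at 1535, 1419, 2235 and 921 CPM, with rat 4 lowest and rat 3 close to CTRL (-0.62, adjusted p = 0.28). The log2 ratio of Bcat1 to Bcat2 was -2.79, -1.72, -4.60 and -1.31 in the Chrysin rats and that of Idh1 to Idh2 was -4.25, -4.01, -4.85 and -3.49, with rat 3 nearest to CTRL in both.

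Other genes of the same pathways were read from a list of 43, of which 41 were tested (Dhtkd1 had no row and Abat was too low). In SU_HX against CTRL, 18 fell, 4 rose and 19 did not pass, where 14.7% of all genes tested fell and 16% rose. The shuttle carriers Slc25a11, Slc25a12 and Slc25a13, which exchange oxoglutarate, aspartate and glutamate across the inner membrane, changed by -1.28, -1.14 and -0.77 and fell. So did the lipoate genes Lias (-0.94) and Lipt1 (-1.10), whose cofactor Dlst and Dbt carry, the succinate dehydrogenase assembly factors Sdhaf1 (-0.61) and Sdhaf2 (-1.13), the malic enzyme Me3 (-1.23) and glutamate dehydrogenase Glud1 (-0.45). Lipt1 was low throughout, with a mean of 3.07 CPM in CTRL and 1.41 CPM in SU_HX. From the same families, Lipt2 (-0.70), Sdhaf3 (-0.56), Sdhaf4 (-0.37) and Me1 (-0.67) did not pass.

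Among further branched-chain genes, the hydratase Echs1 (-1.23), the epimerase Mcee (-1.28) and the cobalamin genes Mmab (-1.21), Mmachc (-1.03) and Mmadhc (-0.84) that serve Mut fell, as did the mitochondrial deacylases Sirt3 (-0.76) and Sirt5 (-0.81). Another cobalamin gene, Mmaa (-0.14), did not pass. Klf15, a transcription factor known in mouse heart to drive branched-chain catabolic genes, lay between 71.7 and 99.8 CPM in CTRL, between 21.9 and 26.8 CPM in SU_HX and between 30.4 and 57.4 CPM in Chrysin hearts. It fell in SU_HX (-1.81, SE 0.19, adjusted p = 0.000637) and in Chrysin (-1.10, SE 0.18, adjusted p = 0.00669) against CTRL. The genes that rose were Slc7a5 (0.99) and Slc3a2 (0.58), the light and heavy chains of a leucine transporter of the plasma membrane, the malic enzyme Me2 (0.73) and the biotin-recycling enzyme Btd (0.49). The 7 further ketone body genes did not pass, with log2 changes from -0.66 for Bdh2 to 0.75 for Acat2 and a smallest adjusted p of 0.115 (Acat2) in edgeR's test. Pc, which RefSeq lists as the current symbol for Pcx, the pyruvate carboxylase that refills oxaloacetate, was at 61.0 ± 4.02 CPM in CTRL, 32.6 ± 12.5 CPM in SU_HX and 47.1 ± 7.79 CPM in Chrysin hearts (SD, n = 4 each) and fell in SU_HX (log2 change -0.90, SE 0.22, adjusted p = 0.00911); it was looked up after the symbol was found missing.

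The authors' deposited table of comparisons holds 35 of the 42 genes at a false discovery rate under 0.05 between CTRL and SU/HX, 34 of them with a negative fold change and 1 with a positive one. The positive one was Bcat1. Unlike in edgeR's test, Idh1 (authors' false discovery rate 0.135) and Hibch (0.0796) did not pass there, and Sdhb did (0.0487). In the authors' deposited table there were 4 of the 42 that passed between CTRL and Chrysin, all with a negative fold change, and 0 passed between SU/HX and Chrysin. The share of all genes that passed in the authors' test was not counted here. Without that share, these counts are not a result about the 42 genes.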

How the data were processed

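The 12 libraries of rat heart RNA, 4 in each of 3 groups, were sequenced on an Illumina NextSeq 500. The authors deposited 1 table in which, per the file headers, each library has whole-number counts per gene, unique and total exon reads and unique intron reads. It also holds the authors' p-values and signed fold changes, a score, per the file headers from their own test. The sources used here name no aligner, genome build or annotation. Total counts had a median of 5085565, and no pair of libraries within a group agreed within sampling noise (smallest chi-square per degree of freedom 3.18).

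The deposited counts were tested with edgeR 4.0.16 (R 4.3.3; TMM factors, filterByExpr, robust quasi-likelihood fit of all 12 libraries, no replicate block), with Benjamini-Hochberg adjustment over the 12304 genes tested and a threshold of 0.05, and intron reads in the same way over 12242 genes. The test was also run on simulated counts that had the same spread for every gene and no outlying library. These data differ from that setting, so its outcome is not used here. Log2 ratios of 2 genes' counts used a pseudocount of 1 count. Levels per length divide CPM by kb of exon. The members, lists and motifs were chosen with earlier results of these data known, so no pattern shown before counts as independent support. Values per rat are given for the 2 genes with the smallest p and the 1 nearest 0 in each functional group, for genes that rose and for genes of the ratios. The same tests were repeated with DESeq2 1.42.0, with limma-voom (limma 3.58.1), with relative-log size factors, without the filter, with a minimum mean of 5 CPM, on the compared groups alone, with a replicate block, on unique exon reads, without each library in turn, without SU_HX rat 1 and Chrysin rat 3 and, an alternative chosen after seeing the data, scaled to cardiomyocyte markers. Values of Acadsb by rat were added because it passed in Chrysin hearts. Protein sequences were not used here. The result for a gene of the further pathway list is not reported here.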

Additional observations from a re-analysis of the deposited data

Results flagged for a closer look

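In 10 of 144 groups of 4 values (42 genes and 6 ratios in 3 groups), the highest or lowest library was farther from the rest than Dixon's 95% critical value allows. Chance flags about 1 in 20 groups, and the genes share libraries. Chrysin rat 3 was the high one for 7 genes. Idh3a was at 346.6 CPM there against 225 to 236 in the other Chrysin rats, Sdhc at 354.8 against 189 to 209, Sdhd at 348.8 against 192 to 207, and Bdh1 at 169.6 against 93.5 to 104. Bckdk was at 130.6 CPM against 64.8 to 68.3, Ppm1k at 121.8 against 64.8 to 70.3, and Hibadh at 241.5 against 124 to 141. This is also the Chrysin library with the highest cardiomyocyte marker sum, 46630 CPM; the part of that in these values was not tested. In CTRL, Sdhc was low in rat 4 at 368.5 CPM against 397 to 403 in the others, and Bckdha high in rat 3 at 238.9 CPM against 142 to 155. The log2 ratio of Bcat1 to Bcat2 in SU_HX rat 3 was 0.231, against -1.48 to -1.20 in the other SU_HX rats.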

How the results depend on the processing

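The number of genes lower in SU_HX than in CTRL stayed between 26 and 35 of 42 under every setting that kept all or dropped 2 libraries, and ranged from 19 (without SU_HX rat 3) to 39 with 1 library left out. The number higher was 1 with no filter and with only the 2 groups, and 1 to 2 with 1 library left out. For Chrysin against CTRL, the number lower was 22 with only the 2 groups. It was 30 without SU_HX rat 1 and Chrysin rat 3, where 15.1% of all genes were lower. It was 0 with scaling to cardiomyocyte markers, where 0.439% of all genes were lower. With 1 library left out it was 0 to 13, where 0.933% to 8.32% of all genes were lower. The number higher was 1 with a mean of at least 5 CPM, 2 with DESeq2, with only the 2 groups and without those 2 libraries, and 0 to 2 with 1 left out. Chrysin against SU_HX gave 0 under all of these. Intron reads gave 15 lower with totals from the exon counts and 23 to 30 with 1 library left out. Against CTRL, the share of all genes was not counted for other tools, size factors or filters, the 2 groups alone or the replicate block. For intron reads it was not counted with 1 library left out. Counts from those fits show only how the calls moved, and the cause of these moves was not tested.

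Same-numbered rats did not deviate together (correlations from -0.382 to 0.0745), but with 4 libraries per group this check cannot exclude a pairing by number. With a replicate block 32 of the 42 genes were lower and 2 higher in SU_HX. Paired differences left the ratios Bcat1/Bcat2 (3.98) and Idh1/Idh2 (2.07) at an exact p of 0.125, the smallest 4 pairs allow. Left-out libraries gave 3.58 to 4.14 and 1.93 to 2.23 for these, -0.37 to -0.19 for Bckdk/Ppm1k, -0.27 to -0.07 for Sucla2/Suclg2, -0.028 to 0.056 for Mdh1/Mdh2 and -0.048 to 0.098 for Got1/Got2.

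Log2 changes that changed sign did not pass in either setting. For Chrysin against SU_HX they were Cs (-0.015 without the 2 libraries, -0.009 with marker scaling) and Idh1 (-0.091 without the 2 libraries, -0.43 with marker scaling, -0.12 to 0.15 with 1 left out), and, with marker scaling, Mccc1 (-0.091), Acad8 (-0.23) and Acadsb (-0.20). For Chrysin against CTRL they were Oxct1 (0.001 with no filter, 0.002 with only the 2 groups, 0.17 with marker scaling, -0.075 to 0.077 with 1 left out), Bdh1 (0.076 with marker scaling, -0.32 to 0.014 with 1 left out) and Idh3a (0.02 with marker scaling). Mccc1 was at 0.049 in SU_HX against CTRL with marker scaling. Bcat1 had the lowest level per length, at 3.55 to 6.71 CPM in CTRL, and counting noise and spread between rats were not separated there.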
